A study of Rattus norvegicus with 91 samples.

Results

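Enzymes that make, oxidise or use ethanol, acetaldehyde, other aldehydes and acetate were followed in rat ventral tegmental area (VTA), a part of the midbrain rich in dopamine neurons. The 10 genes were Aldh2, Aldh1a1, Aldh3a2, Aldh5a1, Aldh7a1, Aldh9a1, Adh5, Cat, Cyp2e1 and Acss2. Every probe set that the platform annotation gives exactly 1 gene symbol, equal to 1 of these names, was taken, which was 12 of the 31099 probe sets on the array. Aldh5a1 had 3 probe sets and each other gene had 1. In the RefSeq gene table for GRCr8, Aldh1a1 and Cyp2e1 lie on chromosome 1, Adh5 on 2, Cat and Acss2 on 3, Aldh3a2 on 10, Aldh2 on 12, Aldh9a1 on 13, Aldh5a1 on 17 and Aldh7a1 on 18. The tissue came from rats of 10 lines in 5 pairs, and within a pair the animals differ in breeding for high or low alcohol consumption. One animal was measured per array. There were 8 HAD1 and 10 LAD1 rats, 8 HAD2 and 9 LAD2 rats, and 9 arrays labelled P with 10 labelled NP. A further 10 arrays were labelled AA with 10 labelled ANA, and 8 were labelled sP with 9 labelled sNP. The labels give no drug treatment, age or sex. Lines bred apart differ by drift as well as by selection, and with 1 line of each kind in a pair these cannot be told apart.

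In liver, alcohol dehydrogenases oxidise most ethanol to acetaldehyde. In brain, catalase, which uses hydrogen peroxide as its oxidant, and the cytochrome P450 Cyp2e1 are known as the main enzymes that carry out this step. Aldehyde dehydrogenases then oxidise acetaldehyde to acetate, with the mitochondrial enzyme Aldh2 as the main one, and Acss2 joins acetate to coenzyme A. The same aldehyde dehydrogenases act on aldehydes the brain makes itself: Aldh1a1 and Aldh2 on the aldehyde of dopamine, Aldh5a1 on succinic semialdehyde from the transmitter GABA, Aldh3a2 on fatty aldehydes, Aldh7a1 on a semialdehyde of lysine breakdown and Aldh9a1 on aminobutyraldehyde and the aldehyde of carnitine synthesis. Adh5, the alcohol dehydrogenase that brain is known to hold, oxidises the adduct of formaldehyde and glutathione.

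Values are log2 signals, so a difference of 1 is a doubling, and differences are given as the high-consumption line minus the low-consumption line of a pair. No test compared levels between pairs or between probe sets. Signals of other pairs are set beside single arrays only to describe arrays that stand out. A probe set was tested when its highest line mean reached 7.02, the 40th percentile of all values. Of the 12 enzyme probe sets, 10 passed, from 9 genes. Cyp2e1 and the Aldh5a1 probe set 1391657_at did not, with highest line means of 6.17 and 6.37. The probe sets 1371062_at and 1379900_at of Aldh5a1 did pass, and are named by these numbers below.

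Of the 56 arrays outside the HAD and LAD lines, 3 labelled AA or ANA had value distributions nearer to those of another pair. The cause was not tested. When the arrays were clustered by the distribution of their values into 5 sets, all 18 HAD1 and LAD1 arrays and all 17 HAD2 and LAD2 arrays fell into sets of their own. The set with most of the P/NP arrays held 20 arrays, where the labels give 19. That of AA/ANA held 17, where the labels give 20, and that of sP/sNP held 19, where the labels give 17. The array labelled AA 1 fell with those labelled P and NP, and those labelled AA 19 and ANA 20 fell with those labelled sP and sNP. Results of these 3 pairs are therefore given by label, and apart from those of the HAD and LAD lines. Th, which makes the precursor of dopamine, had log2 signals between 13.32 and 14.69 on the HAD and LAD arrays. It reached down to 9.12 on the array labelled P 10 and to 8.23 on the one labelled NP 8. Among liver markers only the 2 probe sets of Alb passed the signal floor, and Serpina1, Apoa1, Tat and Cyp7a1 did not. The Alb mean reached 11.90 on arrays labelled NP (median 7.96) and 11.66 in LAD1 rats (median 7.61). On arrays labelled sP it reached 7.11 (median 6.61). Whether arrays high in Alb were those high in Cyp2e1 was not tested. In bulk tissue, fewer cells of a type and less RNA per cell cannot be told apart.

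Promoter sequences from RefSeq (GRCr8), from 250 bases before to 50 bases after the gene start, were matched for 9 of the 10 genes, and not for Aldh2. Those of 3 genes are shown because CpG content differs widely among the enzymes. The median over 33469 rat promoters was 7 CG dinucleotides, counted on the strand of the gene. Aldh1a1 and Cyp2e1 had 1 each, and 13.6% of all promoters had no more. Adh5 had 28, a count that 88.5% of promoters did not exceed. The other 6 had between 13 (Cat) and 24 (Aldh5a1). The motif TATAAA, searched on both strands, occurred in Cyp2e1, with its first base at -49 from the start, and in 14.2% of all promoters. The capitals mark CG dinucleotides and, in Cyp2e1, TATAAA. These letters are a description of the windows, and no motif was tied to a line difference.
Aldh1a1 promoter, chr1:227537370-227537669, plus strand, GRCr8: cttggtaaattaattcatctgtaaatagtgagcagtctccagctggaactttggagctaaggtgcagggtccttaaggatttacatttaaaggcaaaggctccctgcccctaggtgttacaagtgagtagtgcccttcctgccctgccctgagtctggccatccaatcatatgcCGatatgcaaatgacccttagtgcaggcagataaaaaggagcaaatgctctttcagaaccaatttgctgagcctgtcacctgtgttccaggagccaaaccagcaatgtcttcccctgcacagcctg
Cyp2e1 promoter, chr1:205269717-205270016, plus strand, GRCr8: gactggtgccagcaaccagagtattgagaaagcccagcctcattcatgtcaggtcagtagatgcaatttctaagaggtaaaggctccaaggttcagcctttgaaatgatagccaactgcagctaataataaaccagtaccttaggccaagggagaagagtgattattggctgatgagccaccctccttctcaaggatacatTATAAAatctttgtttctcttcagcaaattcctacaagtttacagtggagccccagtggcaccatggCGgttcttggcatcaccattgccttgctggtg
Adh5 promoter, chr2:229648307-229648606, plus strand, GRCr8: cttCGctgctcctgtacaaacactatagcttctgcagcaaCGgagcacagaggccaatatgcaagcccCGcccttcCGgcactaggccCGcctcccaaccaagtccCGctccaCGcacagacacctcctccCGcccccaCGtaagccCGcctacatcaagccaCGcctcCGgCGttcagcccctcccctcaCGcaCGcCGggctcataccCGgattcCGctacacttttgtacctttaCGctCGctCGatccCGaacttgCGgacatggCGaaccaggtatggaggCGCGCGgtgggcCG

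None of the 10 tested enzyme probe sets was called in HAD1 against LAD1, where 4.38% of all 15152 tested probe sets were called (limma, Benjamini-Hochberg adjusted p under 0.05). None was called in HAD2 against LAD2 either, where 5.66% of all were. At an unadjusted p under 0.05 the counts were 3 of 10 in HAD1/LAD1, against 14.7% of all probe sets, and 2 of 10 in HAD2/LAD2, against 16.1%. All 10 confidence intervals (95%) lay within a fold of 1.5 in either direction in both pairs. A fit with array weights called 1 of 10 in HAD1/LAD1, Aldh2, and 0 of 10 in HAD2/LAD2. The shares above are those of the fit without weights, and the share called with weights is not given here. Leaving out 1 HAD2 array brought a call of Aldh7a1, as described with the single omissions. The median enzyme difference was -0.01 in HAD1/LAD1, beside 0.00 over all probe sets, and 0.02 in HAD2/LAD2, beside 0.01.

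**Figure D1:**
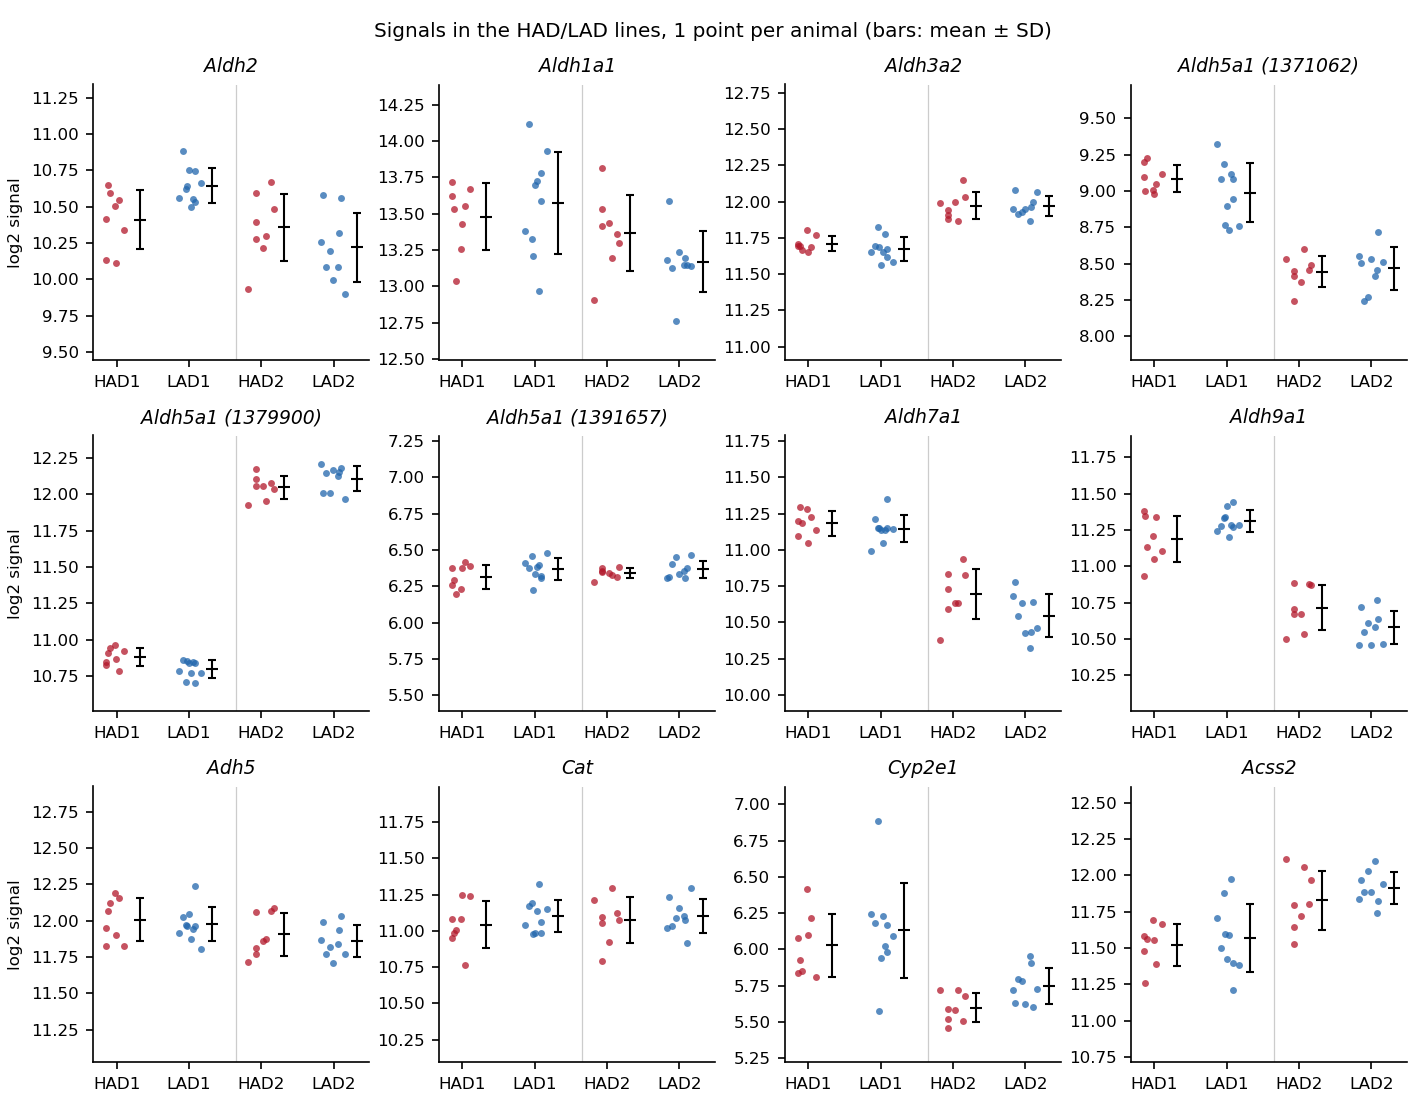
Log2 signal of each enzyme probe set in HAD1, LAD1, HAD2 and LAD2 rats, with 1 point per animal, bars for the mean and SD, and the same span on every vertical axis. Within both pairs the points of the high- and low-consumption line overlap in every panel, Aldh2 lies lower in HAD1 than in LAD1 on average, and HAD2 and LAD2 differ the other way.

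Among the enzymes that oxidise ethanol, catalase did not separate the lines. Cat had log2 signals from 10.76 to 11.25 in HAD1 rats, with a median of 11.04, against 10.98 to 11.32 in LAD1 rats, with a median of 11.10. It ranged from 10.79 to 11.30 in HAD2 rats, with a median of 11.09, against 10.91 to 11.30 in LAD2 rats, also with a median of 11.09. The ranges overlapped in both pairs, with 2 of 8 HAD1 rats above the LAD1 median and 4 of 8 HAD2 rats above the LAD2 median. The differences were -0.06 ± 0.06 (SE) in HAD1/LAD1 and -0.03 ± 0.07 in HAD2/LAD2, with adjusted p-values of 0.773 and 0.896 (limma).

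The mean of Cyp2e1 stayed below the signal floor of 7.02 in every line, and 2 single arrays, P 4 (7.15) and NP 6 (7.79), exceeded it. Its log2 signal ran from 5.81 to 6.42 in HAD1 rats, with a median of 6.0, against 5.58 to 6.88 in LAD1 rats, with a median of 6.13. In HAD2 rats it ran from 5.46 to 5.72, with a median of 5.59, against 5.60 to 5.95 in LAD2 rats, with a median of 5.72. The lines overlapped in both pairs. RMA signals carry no detection call, so whether a transcript was present at these values was not settled. When all probe sets were tested without the floor, the differences were -0.10 ± 0.10 (SE) and -0.15 ± 0.10, with adjusted p-values of 0.763 and 0.609.

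Adh5 varied little between lines. It had 11.82 to 12.19 in HAD1 rats, with a median of 12.01, against 11.81 to 12.24 in LAD1 rats, with a median of 11.97 (log2 signal). HAD2 rats had 11.72 to 12.09, with a median of 11.87, against 11.71 to 12.03 in LAD2 rats, with a median of 11.84. Both pairs overlapped almost fully. The differences were 0.03 ± 0.06 (SE) in HAD1/LAD1 and 0.05 ± 0.06 in HAD2/LAD2, with adjusted p-values of 0.899 and 0.819.

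Aldh2, the main acetaldehyde oxidiser, was the enzyme furthest apart in HAD1/LAD1, without passing the test. Its log2 signal was 10.11 to 10.65 in HAD1 rats, with a median of 10.46, against 10.50 to 10.88 in LAD1 rats, with a median of 10.63. The ranges overlapped, and 1 of 8 HAD1 rats lay above the LAD1 median. The difference was -0.23 ± 0.09 (SE), with a confidence interval from -0.42 to -0.05 and an adjusted p of 0.181. With array weights it was -0.29 and was called (adjusted p = 0.0468). HAD2 rats had 9.94 to 10.67, with a median of 10.34, against 9.90 to 10.58 in LAD2 rats, with a median of 10.20. Here 7 of 8 HAD2 rats lay above the LAD2 median, and the difference was 0.14 ± 0.09 with an adjusted p of 0.541. The HAD1/LAD1 difference minus the HAD2/LAD2 difference was -0.37 ± 0.13 (adjusted p = 0.111), and -0.44 with array weights (adjusted p = 0.0268).

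Aldh1a1, known as a marker of a ventral subset of midbrain dopamine neurons, had the widest spread of the enzymes. Within lines its pooled SD over the 35 HAD and LAD arrays was 0.27, larger than that of 91.9% of tested probe sets. The log2 signal was 13.04 to 13.72 in HAD1 rats, with a median of 13.54, against 12.97 to 14.12 in LAD1 rats, with a median of 13.64. The HAD1 range lay inside the LAD1 range. HAD2 rats had 12.90 to 13.82, with a median of 13.39, against 12.76 to 13.59 in LAD2 rats, with a median of 13.14, and 7 of 8 HAD2 rats lay above the LAD2 median. The differences were -0.09 ± 0.12 (SE, adjusted p = 0.819) in HAD1/LAD1 and 0.20 ± 0.13 (adjusted p = 0.490) in HAD2/LAD2. Beside these values, 3 of 16 dopamine neuron probe sets fell in HAD1 rats and none rose, where 4.38% of all probe sets were called. They were 1 probe set each of Ddc (by 0.69), Slc18a2 (by 0.71) and Gch1 (by 0.76). The other tested probe sets of these genes, and those of Th and Slc6a3, were not called. The median difference of the 16 was -0.08. In HAD2/LAD2 none of the 16 was called, where 5.66% of all were, and their median difference was 0.08. The mean of the 16 ranged from 10.48 to 10.99 in HAD1 rats, against 10.41 to 11.34 in LAD1 rats. It ranged from 10.34 to 11.19 in HAD2 rats, against 10.28 to 11.13 in LAD2 rats. Their part in the Aldh1a1 differences was not tested.

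Aldh7a1, the enzyme of lysine breakdown, was the one nearest to a call in HAD2/LAD2. Aldh7a1 had log2 signals of 10.38 to 10.94 in HAD2 rats, with a median of 10.68, against 10.32 to 10.78 in LAD2 rats, with a median of 10.55. The ranges overlapped, 7 of 8 HAD2 rats lay above the LAD2 median, and the difference was 0.15 ± 0.06 (SE, adjusted p = 0.204). In HAD1 rats it had 11.05 to 11.30, with a median of 11.19, against 10.99 to 11.35 in LAD1 rats, with a median of 11.15, a difference of 0.04 ± 0.06 (adjusted p = 0.869). Over both pairs Aldh7a1 averaged 0.09 ± 0.04 higher (adjusted p = 0.280), and it was the enzyme with an unadjusted p under 0.05 in that mean, 1 of 10, against 16.4% of all probe sets. None of the 10 was called in the mean, where 5.72% of all were.

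Aldh9a1 pointed opposite ways in HAD1/LAD1 and HAD2/LAD2. Its log2 signal was 10.93 to 11.38 in HAD1 rats, with a median of 11.17, against 11.20 to 11.45 in LAD1 rats, with a median of 11.29. It was 10.50 to 10.89 in HAD2 rats, with a median of 10.69, against 10.46 to 10.77 in LAD2 rats, with a median of 10.58. Each pair overlapped. The differences were -0.12 ± 0.06 (SE, adjusted p = 0.338) and 0.13 ± 0.06 (adjusted p = 0.262). The HAD1/LAD1 minus the HAD2/LAD2 difference was -0.26 ± 0.09 (adjusted p = 0.0876), the nearest to the threshold of any enzyme.

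Aldh5a1 gave tight values on 1379900_at. HAD1 rats had 10.79 to 10.96, with a median of 10.89, against 10.70 to 10.86 in LAD1 rats, with a median of 10.81 (log2 signal). HAD2 rats had 11.93 to 12.17, with a median of 12.06, against 11.97 to 12.21 in LAD2 rats, with a median of 12.14. In HAD1 7 of 8 rats lay above the LAD1 median, and in HAD2 1 of 8 lay above the LAD2 median, with overlap in both pairs. The differences were 0.08 ± 0.04 (SE, adjusted p = 0.302) and -0.06 ± 0.04 (adjusted p = 0.542). Its pooled SD of 0.07 was larger than that of only 1.76% of tested probe sets. The probe set 1371062_at differed by 0.09 ± 0.07 in HAD1/LAD1 and by -0.02 ± 0.07 in HAD2/LAD2, so both probe sets had the same sign in each HAD/LAD pair, and neither was called. Without LAD2 12 the sign of 1371062_at turned in HAD2/LAD2 (0.0093). The 2 probe sets had opposite signs in the other pairs, with -0.18 for 1371062_at and 0.06 for 1379900_at in P/NP, 0.05 and -0.01 in AA/ANA, and -0.01 and 0.02 in sP/sNP. The dim probe set 1391657_at had 6.20 to 6.42 in HAD1 rats, against 6.22 to 6.48 in LAD1 rats, and 6.28 to 6.39 in HAD2 rats, against 6.31 to 6.46 in LAD2 rats.

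Aldh3a2 and Acss2 complete the group. Aldh3a2 had 11.65 to 11.80 in HAD1 rats, with a median of 11.69, against 11.56 to 11.82 in LAD1 rats, with a median of 11.66 (log2 signal). HAD2 rats had 11.87 to 12.15, with a median of 11.97, against 11.86 to 12.08 in LAD2 rats, with a median of 11.95. These lines overlapped with differences of 0.04 ± 0.04 (SE) and 0.00 ± 0.04, and a pooled SD of 0.08. Acss2 had 11.26 to 11.69 in HAD1 rats, with a median of 11.56, against 11.21 to 11.97 in LAD1 rats, with a median of 11.55. HAD2 rats had 11.53 to 12.11, with a median of 11.80, against 11.74 to 12.10 in LAD2 rats, with a median of 11.89. The differences were -0.04 ± 0.08 and -0.08 ± 0.09, with adjusted p-values of 0.893 and 0.729.

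Whether the line difference itself differed between both HAD/LAD pairs was tested in the same limma fit. None of the 10 enzyme probe sets was called, where 4.84% of all were, and 3 of 10 had an unadjusted p under 0.05, against 14.8% of all. These were Aldh2, Aldh9a1 and, with a positive sign, 1379900_at of Aldh5a1 (0.14 ± 0.06, SE). Single arrays decided whether some enzymes were called. HAD2 5 had the least Th of all HAD and LAD arrays (13.32), and the part of this in the enzyme values was not tested. HAD2 5 was also the lowest HAD2 array for Aldh2 (9.94), Aldh1a1 (12.90), Aldh7a1 (10.38), Aldh9a1 (10.50) and Adh5 (11.72) and the highest for Acss2 (12.11). Without it the difference of differences was -0.43 for Aldh2 (adjusted p = 0.0326) and -0.29 for Aldh9a1 (adjusted p = 0.0390), and Aldh7a1 was 0.19 higher in HAD2 than in LAD2 rats (adjusted p = 0.0419), all of which pass the threshold. Leaving out LAD2 17 brought Aldh2 to -0.42 (adjusted p = 0.0491), and leaving out HAD1 26 brought Aldh9a1 to -0.28 (adjusted p = 0.0493). No other single omission among the 35 arrays brought an enzyme past the threshold in these comparisons.

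The 3′ minus 5′ control signals of Gapdh and actin are larger where transcripts are shorter. Their correlations with 4 of the 10 tested enzyme probe sets in HAD2/LAD2 had opposite signs. No test was made, and values for the other probe sets are not given here. The signal of Gapdh averaged 1.89 in HAD1 rats (lowest 1.70), against 1.78 in LAD1 rats (lowest 1.55). It averaged 3.42 in HAD2 rats (3.01 to 3.75), against 3.58 in LAD2 rats (2.93 to 4.03). Over the 17 HAD2 and LAD2 arrays, after line means were subtracted, it had a Pearson correlation of -0.62 with Aldh7a1, -0.56 with Aldh2, -0.55 with Adh5 and -0.50 with Aldh9a1. Over the 18 HAD1 and LAD1 arrays the same values were -0.17, 0.09, 0.17 and -0.11. The signal of actin averaged 3.73 in HAD1 rats, against 3.57 in LAD1 rats, and 4.34 in HAD2 rats, against 4.49 in LAD2 rats. Over the HAD2 and LAD2 arrays it correlated at 0.34 with Aldh7a1, 0.40 with Aldh2, 0.54 with Adh5 and 0.27 with Aldh9a1, and over the HAD1 and LAD1 arrays at -0.16, -0.06, 0.06 and -0.35.

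Some marker probe sets of several cell types were called between HAD2 and LAD2 rats, where 5.66% of all tested probe sets were called. Of the microglia markers 2 of 7 probe sets rose in HAD2 rats, of the meningeal and fibroblast markers 2 of 7, of the astrocyte markers 1 of 14 and of the endothelial markers 1 of 8, while 2 endothelial and 1 of 7 neuron probe sets fell. The neuron mean ranged from 10.37 to 10.83 in HAD2 rats, against 10.77 to 11.13 in LAD2 rats, although its median probe set differed by only -0.01. The astrocyte mean ranged from 10.56 to 10.89 in HAD2 rats, against 10.43 to 10.61 in LAD2 rats. Of its 14 probe sets 6 had an unadjusted p under 0.05, against 16.1% of all. The microglia mean ranged from 8.24 to 8.82 in HAD2 rats, against 8.19 to 8.49 in LAD2 rats, and the meningeal mean from 7.70 to 8.78, against 7.51 to 7.91. These ranges overlapped. In HAD1 rats 1 microglia, 1 astrocyte and 1 endothelial probe set fell, and 1 endothelial and 1 of 11 oligodendrocyte probe sets rose. The share called among all probe sets was 4.38% in that pair. Over the 35 arrays the microglia mean correlated at 0.70 with Aldh7a1, 0.56 with Aldh9a1, 0.54 with Aldh2 and 0.50 with Adh5, the astrocyte mean at 0.52, 0.22, 0.47 and 0.44, and the neuron mean at -0.29, -0.47, -0.26 and -0.34. The part of the control signals and of these markers in the enzyme differences was not tested.

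**Figure D2:**
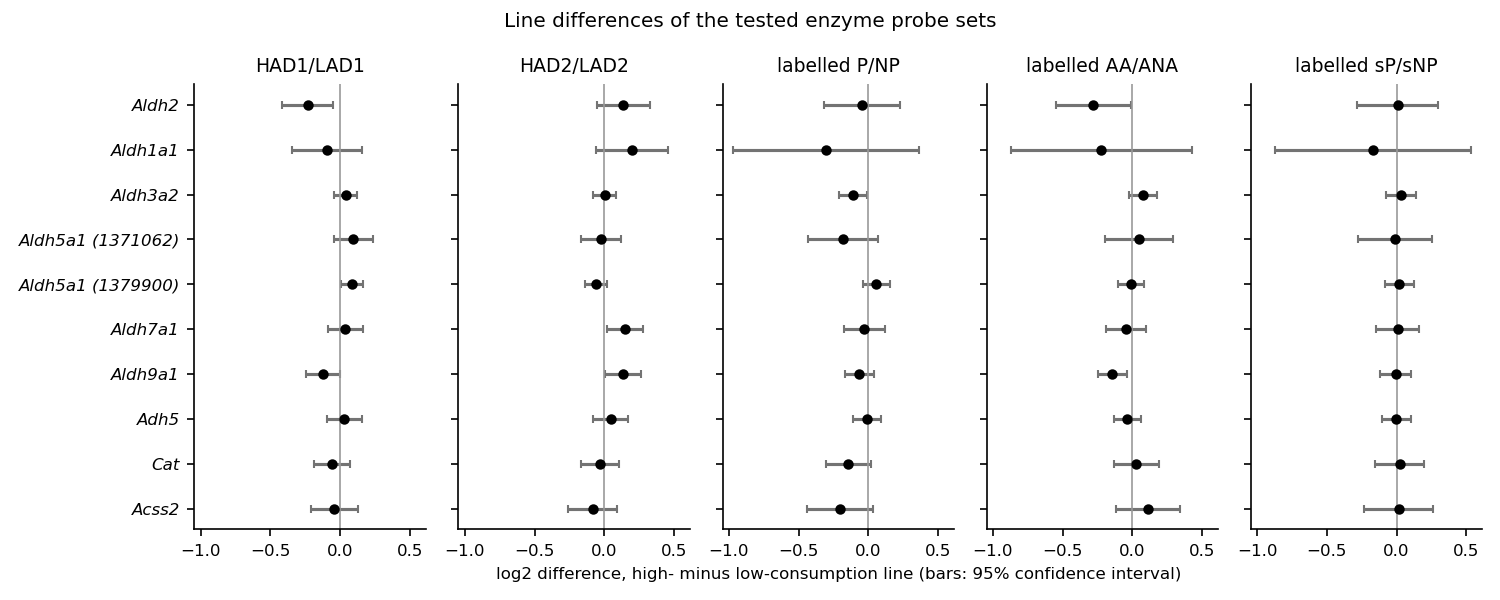
Log2 difference between the high- and low-consumption line of each pair for the 10 tested enzyme probe sets, with 95% confidence intervals from limma. Most intervals cross 0, the interval of Aldh1a1 is the widest in every pair, and Aldh2 and Aldh9a1 lie left of 0 in HAD1/LAD1 and right of 0 in HAD2/LAD2.

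In the pairs outside HAD and LAD, none of the 10 enzyme probe sets was called by limma either. In the arrays labelled P against those labelled NP, 0% of all probe sets were called, 1 of 10 enzymes (Aldh3a2) had an unadjusted p under 0.05, and 4.16% of all did. In those labelled AA against ANA 2.42% of all were called, and 2 of 10 enzymes (Aldh2 and Aldh9a1) had an unadjusted p under 0.05, against 11.9% of all. In those labelled sP against sNP 0% of all were called, and 0 of 10 enzymes had an unadjusted p under 0.05, against 0.95% of all. A fit with array weights called 1, 2 and 0 enzymes in these pairs, and 1216, 1173 and 1 of all probe sets. Of the 10 confidence intervals 9 lay within a fold of 1.5 in each pair, and that of Aldh1a1 did not, reaching 1.96-fold, 1.83-fold and 1.83-fold.

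Aldh9a1 and Aldh2 had their lowest p-values outside HAD and LAD in AA/ANA. Aldh9a1 had log2 signals of 10.62 to 11.04 on arrays labelled AA, with a median of 10.85, against 10.85 to 11.14 on those labelled ANA, with a median of 10.94. The ranges overlapped, 1 of 10 AA arrays lay above the ANA median, and the difference was -0.14 ± 0.05 (SE, adjusted p = 0.149). Aldh2 had 10.35 to 10.97 on AA arrays, with a median of 10.60, against 10.35 to 11.35 on ANA arrays, with a median of 10.95, a difference of -0.28 ± 0.13 (adjusted p = 0.384). Without the 3 arrays that stand apart the differences were -0.17 (adjusted p = 0.0894) for Aldh9a1 and -0.34 (adjusted p = 0.238) for Aldh2. Array weights called both, with -0.16 for Aldh9a1 (adjusted p = 0.0147) and -0.33 for Aldh2 (adjusted p = 0.0360). Aldh9a1 had 10.40 to 10.89 on arrays labelled P, against 10.53 to 10.93 on those labelled NP, and 10.77 to 10.92 on those labelled sP, against 10.79 to 10.95 on those labelled sNP. Its differences there were -0.07 ± 0.05 and -0.00 ± 0.06. Aldh3a2 had 11.07 to 11.24 on AA arrays, with a median of 11.15, against 10.97 to 11.30 on ANA arrays, with a median of 11.04. All 10 AA arrays lay above the ANA median, and the difference of 0.08 ± 0.05 was not called (adjusted p = 0.612). Over all 5 pairs, the moderated F test of whether a difference depends on the pair called none of the enzymes, where 6.53% of all probe sets were called, and Aldh9a1 had the lowest adjusted p among them (0.0767).

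Aldh1a1 spread over a wide range on arrays labelled P and NP. It had 9.79 to 13.81 on P arrays, with a median of 12.43, against 11.18 to 13.94 on NP arrays, with a median of 12.58 (log2 signal). P 10 and NP 8, the arrays with the least Th, were also the lowest of their label for Aldh1a1. The difference was -0.30 ± 0.33 (SE, adjusted p = 0.998) with all arrays, -0.15 without P 10 and NP 8, an alternative chosen after the data were seen, and 0.00 without P 10 alone. It was 0.47 with array weights, where the sign turns (adjusted p = 0.246). Arrays labelled AA had 13.61 to 14.65, against 13.81 to 14.69 on those labelled ANA, and arrays labelled sP had 13.23 to 14.69, against 13.08 to 14.63 on those labelled sNP. Those groups overlapped too, with differences of -0.22 ± 0.32 and -0.17 ± 0.35, where the SE rests on a spread pooled with P and NP.

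**Figure D3:**
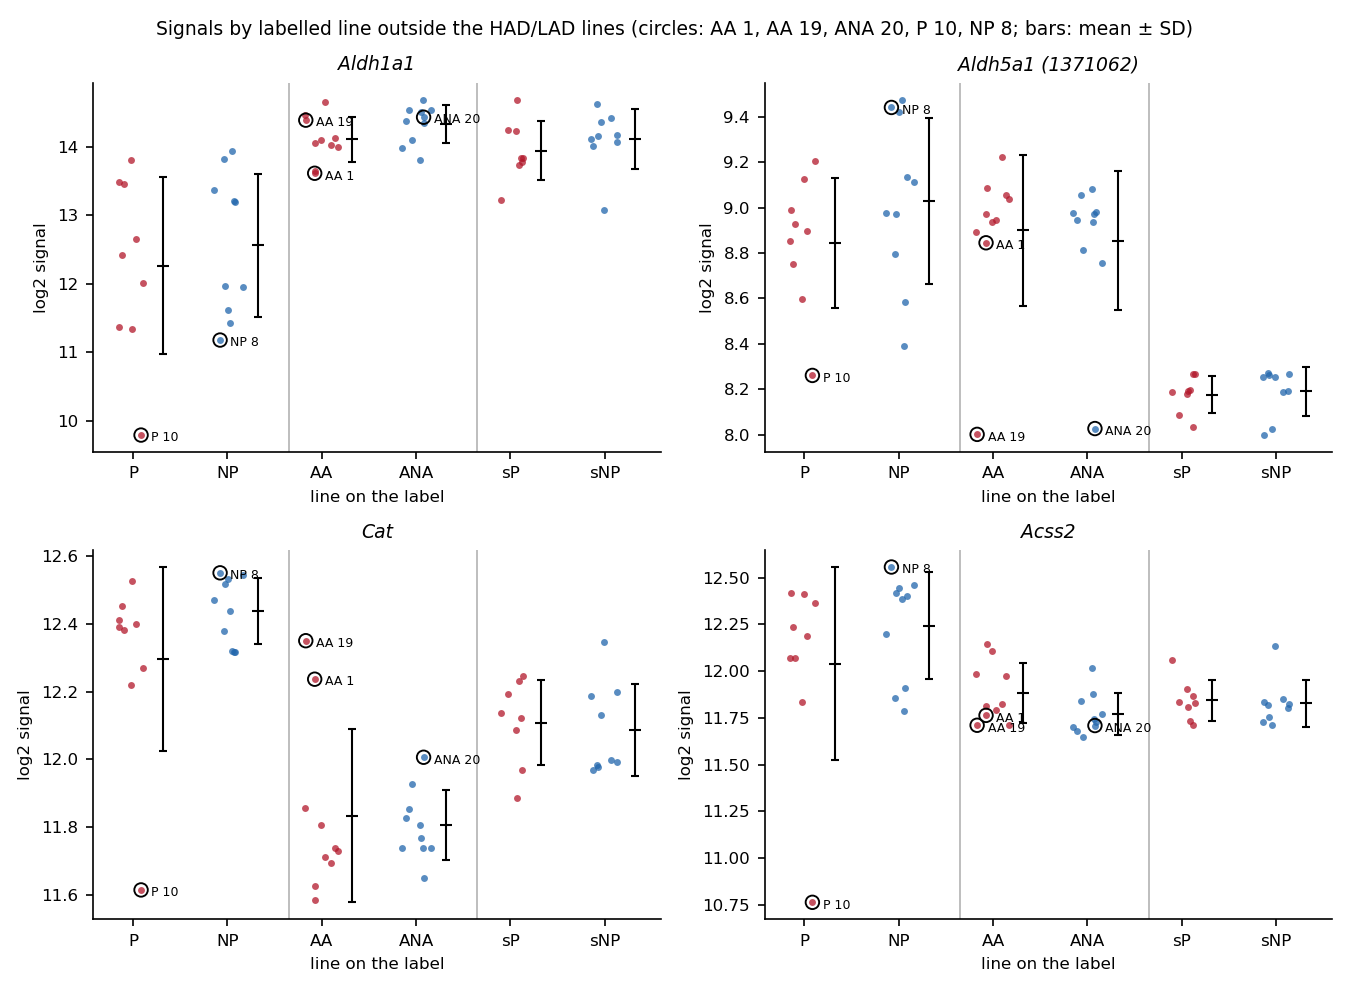
Log2 signals of Aldh1a1, the Aldh5a1 probe set 1371062_at, Cat and Acss2 by the line on the label outside HAD and LAD, with the mean and SD, and circles round the arrays labelled AA 1, AA 19, ANA 20, P 10 and NP 8. On the Aldh5a1 panel AA 19 and ANA 20 sit at 8.0 and 8.03, among the arrays labelled sP and sNP (up to 8.27) and below every other AA or ANA array.

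Of the 3 arrays that stand apart, AA 19 and ANA 20 were also apart on the Aldh5a1 probe set 1371062_at, and AA 1 was not. AA 19 had 8.0 and ANA 20 had 8.03, against 8.75 or more on every other array labelled AA or ANA. Arrays labelled sP had 8.03 to 8.27, and those labelled sNP had 8.0 to 8.27. With 1 such array under each label the difference was 0.05 ± 0.12 (SE). It was 0.07 without the 3 arrays, -0.05 without ANA 20 and 0.15 without AA 19. Cat had 12.35 on AA 19 and a median of 11.73 on AA arrays, against a median of 11.79 on ANA arrays. Its difference was 0.03 ± 0.08 with all arrays, and -0.06 without the 3 (adjusted p = 0.832). Of the 10 probe sets, 0 had 1 sign in all 5 pairs, and Aldh1a1, Aldh3a2 and Aldh9a1 had 1 sign in 4 of 5, with Aldh1a1 and Aldh9a1 mostly lower and Aldh3a2 mostly higher.

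Most of the other larger P/NP differences shrank without P 10. Acss2 had 10.76 to 12.42 on arrays labelled P, with a median of 12.19, against 11.79 to 12.56 on those labelled NP, with a median of 12.40, a difference of -0.20 ± 0.12 (SE). It was -0.04 without P 10 and -0.01 without P 10 and NP 8, which is the highest NP array for Acss2 and Cat. Cat had 11.61 to 12.53 on P arrays, with a median of 12.39, against 12.32 to 12.55 on NP arrays, with a median of 12.45, a difference of -0.14 ± 0.08 that was -0.06 without P 10 and -0.04 without both arrays. Aldh3a2 had 10.67 to 11.25 on P arrays, with a median of 11.20, against 11.06 to 11.39 on NP arrays, with a median of 11.23, a difference of -0.11 ± 0.05 that was -0.05 without P 10 and without both. The Aldh5a1 probe set 1371062_at had 8.26 to 9.21 on P arrays, with a median of 8.90, against 8.39 to 9.47 on NP arrays, with a median of 9.04, a difference of -0.18 ± 0.12. It was -0.11 without P 10 and -0.07 without both, and with array weights it was -0.30 and was called (adjusted p = 0.0300). In all 4 P 10 was the lowest P array and the adjusted p with all arrays and no weights was 0.998. Adh5 differed by -0.01 ± 0.05 in P/NP, by -0.04 ± 0.05 in AA/ANA and by -0.00 ± 0.05 in sP/sNP, and Aldh7a1 by -0.03 ± 0.07, -0.05 ± 0.07 and 0.01 ± 0.08.

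Within lines, Aldh1a1 followed dopamine neuron genes. Correlations were taken over deviations from the line mean, with no test, and the points of a set share a normalization. Over the 35 HAD and LAD arrays the genes most like Aldh1a1 were Anxa1, an annexin found in a subset of midbrain dopamine neurons (Pearson r = 0.87), Lmo3, a transcription cofactor (0.84), and Fkbp9 (0.81). With Th the value was 0.63 (Spearman 0.52), and with the mean of 16 dopamine neuron probe sets it was 0.55 (Spearman 0.56). That was 0.51 over the 18 HAD1 and LAD1 arrays and 0.61 over the 17 HAD2 and LAD2 arrays. On arrays labelled P or NP it was 0.96 over 19, on those labelled AA or ANA 0.77 over 20, and on those labelled sP or sNP 0.66 over 17. Leaving out the 2 arrays farthest from the median marker level gave 0.54 for HAD and LAD, and 0.95, 0.70 and 0.53 for the other pairs. Other enzymes also moved with Aldh1a1 on arrays labelled P or NP. The values were 0.79 for Adh5, 0.74 for Aldh7a1, 0.71 for Aldh9a1, 0.67 for Aldh3a2, 0.66 for 1379900_at of Aldh5a1 and 0.61 for Aldh2. They were 0.21 for Cat, -0.01 for Acss2 and -0.34 for 1371062_at.

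**Figure D4:**
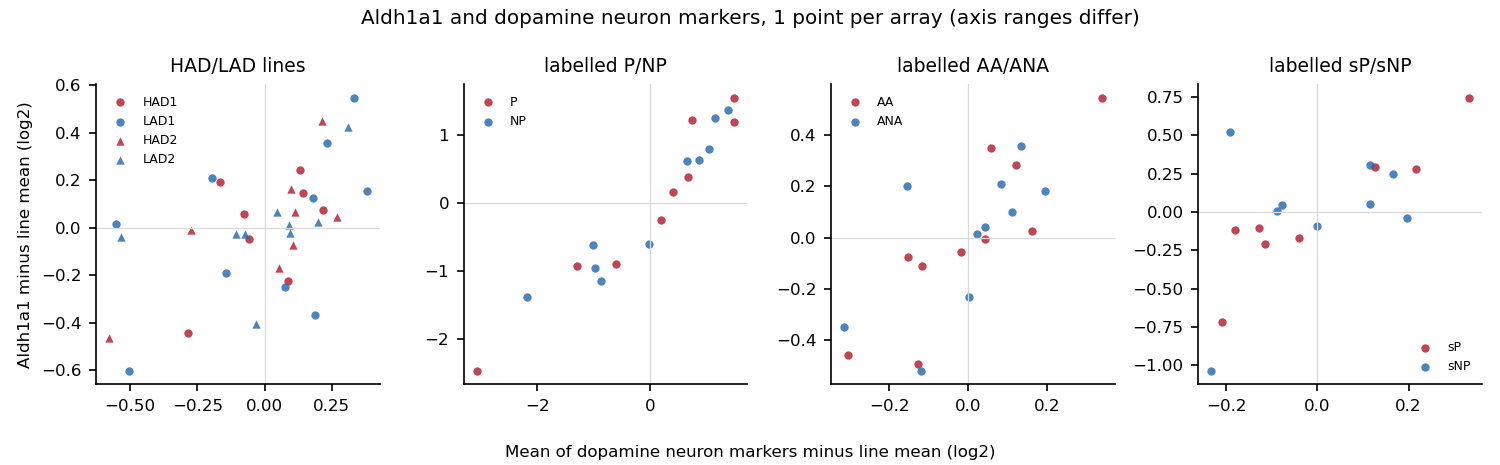
Deviation of Aldh1a1 from its line mean against the deviation of the mean of 16 dopamine neuron probe sets, in log2 units, with 1 point per array and axis ranges that differ between panels. The points rise from lower left to upper right in every panel, most tightly on arrays labelled P or NP, where the correlation is 0.96.

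Of the other enzymes, 4 correlated with each other. By Pearson r on all arrays, each of their pairs was closer in HAD2/LAD2 than in HAD1/LAD1. Aldh2, Aldh7a1, Aldh9a1 and Adh5 correlated with each other at 0.54 to 0.76 over the HAD and LAD arrays, with Aldh2 and Aldh7a1 the closest (0.76). Over the 17 HAD2 and LAD2 arrays the values were 0.61 to 0.88. Over the 18 HAD1 and LAD1 arrays they were 0.17 for Aldh2 with Aldh9a1, 0.42 for Aldh2 with Adh5, 0.46 for Aldh7a1 with Adh5, 0.49 for Aldh7a1 with Aldh9a1, 0.61 for Aldh2 with Aldh7a1 and 0.62 for Aldh9a1 with Adh5. This order did not hold by every measure. For Aldh7a1 with Aldh9a1 the Spearman correlation was 0.64 in HAD1/LAD1, against 0.48 in HAD2/LAD2. Without the 2 arrays farthest from the median of Aldh7a1, its Pearson correlation with Aldh9a1 was 0.68 against 0.42. With Adh5 it was 0.61 against 0.59. The difference between the 2 sets of arrays was not tested. Cat and Acss2 correlated at 0.62, and Acss2 and Aldh1a1 at -0.64. Of the 45 pairs of enzyme probe sets 7 had a correlation over 0.5, and 3.25% of all pairs of tested probe sets did. Aldh2 and Aldh7a1 were each among the 3 genes most like the other. Both Aldh5a1 probe sets that passed the floor correlated at only -0.09, so within lines they did not follow each other.

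**Figure D5:**
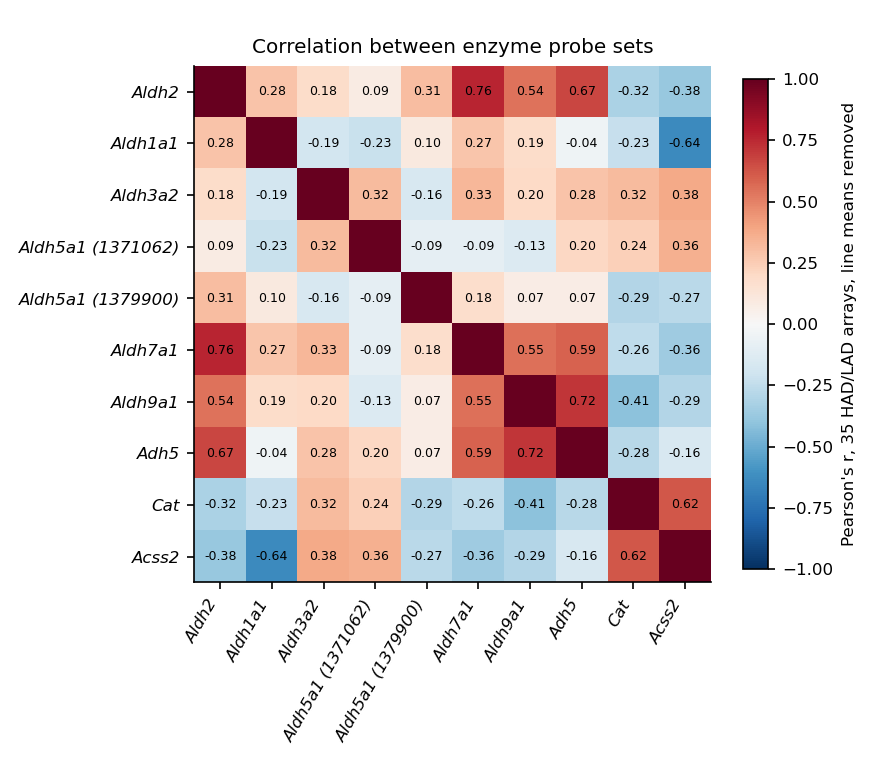
Pearson correlation between the tested enzyme probe sets over the 35 HAD and LAD arrays after line means were subtracted, with each value printed in its cell and red for positive values. Aldh2, Aldh7a1, Aldh9a1 and Adh5 correlate positively with each other, at 0.54 to 0.76, and Aldh1a1 and Acss2 correlate at -0.64.

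The closest genes of the other enzymes differed from enzyme to enzyme. For Cat they included Phyh (0.74), which like catalase works in peroxisomes, with Pik3ca (0.75) and Prkaa1 (0.74), subunits of kinases that respond to growth factors and to energy state. For Aldh3a2 they were Aco1 (0.77), Evi2a (0.75) and Taldo1 (0.72), of which Aco1 is the cytosolic aconitase and Taldo1 a pentose phosphate enzyme. Adh5 was closest to Ercc3 (0.85), a DNA repair helicase, Acss2 to Trim16 (0.84) and Igf1 (0.84), and Aldh9a1 to Smim7 (0.79). These were picked as the highest among all tested probe sets, and no test goes with them.

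Neighbouring enzymes were counted in 4 lists. Of 9 tested probe sets of other aldehyde dehydrogenases, such as the astrocyte enzyme Aldh1l1, none was called by limma in any of the 5 pairs. Of all probe sets 4.38% were called in HAD1/LAD1, 5.66% in HAD2/LAD2, 2.42% in AA/ANA and 0% in P/NP and in sP/sNP. At an unadjusted p under 0.05 this list had 0 in HAD1/LAD1, against 14.7% of all, and 3 in HAD2/LAD2, against 16.1%. Among other alcohol dehydrogenases and carbonyl reductases, 1 of 16 probe sets rose in HAD1 rats and none fell, while 1 rose and 2 fell in HAD2 rats. Counting both directions, the share called among all probe sets was 4.38% for HAD1/LAD1 and 5.66% for HAD2/LAD2. The median difference of these 16 was 0.02 in HAD1/LAD1 and -0.01 in HAD2/LAD2, beside 0.00 and 0.01 over all probe sets.

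Cbr4, a subunit of a mitochondrial carbonyl reductase, rose in both HAD lines. It averaged 9.76 ± 0.09 in HAD1 rats (SD, n = 8), against 9.23 ± 0.27 in LAD1 rats (SD, n = 10). In HAD2 rats it averaged 9.89 ± 0.18 (SD, n = 8), against 9.53 ± 0.15 in LAD2 rats (SD, n = 9). The differences were 0.54 ± 0.09 (SE, adjusted p = 7.43e-05) and 0.37 ± 0.09 (adjusted p = 0.00726), and both stayed called in all 35 single omissions. Cbr4 was not called in the other pairs, with differences of 0.02 ± 0.09 in P/NP, -0.09 ± 0.09 in AA/ANA and 0.01 ± 0.10 in sP/sNP (SE).

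Cbr1, a cytosolic carbonyl reductase that has near-identical copies in the rat genome, so that its probe set may read several, fell by 0.48 ± 0.10 (SE) in HAD2 rats (adjusted p = 0.00161). It averaged 10.23 ± 0.12 in HAD2 rats, against 10.70 ± 0.23 in LAD2 rats (SD). In HAD1 rats it averaged 10.16 ± 0.27, against 10.44 ± 0.21 in LAD1 rats, and the difference of -0.28 was not called (adjusted p = 0.110). Dcxr, which reduces xylulose and dicarbonyls, fell by 0.23 ± 0.06 in HAD2 rats (adjusted p = 0.0114) and differed by 0.07 ± 0.06 in HAD1/LAD1, and the difference between both pairs was 0.30 ± 0.08 (adjusted p = 0.0245). In that test 1 of 16 was higher and none lower, where 4.84% of all probe sets were called. Fitting all 91 arrays together ended both Dcxr calls. In the mean of both pairs, where 5.72% of all were called, 2 of the 16 rose and 1 fell. Cbr4 rose by 0.45 and the polyol enzyme Sord by 0.13 (adjusted p = 0.0489, called in 10 of 35 single omissions), and Cbr1 fell by 0.38. The second probe set of Sord differed by 0.04 (adjusted p = 0.744).

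Enzymes and transporters that make or use the same aldehydes or acetate had 20 probe sets tested. None was called in HAD1/LAD1, where 4.38% of all were. In HAD2/LAD2, where 5.66% of all were called, 1 fell in HAD2 rats. This was Hacl1, a peroxisomal lyase that releases fatty aldehydes, which fell by 0.31 ± 0.07 (SE, adjusted p = 0.00433). It averaged 8.22 ± 0.16 in HAD2 rats, against 8.53 ± 0.19 in LAD2 rats, and 8.82 ± 0.13 in HAD1 rats, against 8.72 ± 0.10 in LAD1 rats (SD). The difference between both pairs was 0.41 ± 0.10 (adjusted p = 0.00931). Abat, the GABA transaminase that makes the substrate of Aldh5a1, rose by 0.22 ± 0.05 on arrays labelled AA against ANA on 1 probe set (adjusted p = 0.00760), where 2.42% of all probe sets were called. Its other probe sets differed by 0.26 ± 0.12 (adjusted p = 0.347) and -0.06 ± 0.10 (adjusted p = 0.917) there.

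Among 15 probe sets of partners of catalase and Cyp2e1 (peroxisome import, electron donors and antioxidant enzymes), none was called in HAD1/LAD1. The share called among all probe sets was 4.38% there. In each of HAD2/LAD2, the mean of both pairs and AA/ANA 1 of the 15 was called, where 5.66%, 5.72% and 2.42% of all were. Cyb5a, the cytochrome b5 that passes electrons to P450 enzymes, rose by 0.23 ± 0.07 (SE) in HAD2 rats (adjusted p = 0.0315), a call kept in 28 of 35 single omissions and lost with quantile normalization (0.20, adjusted p = 0.0501), with all 91 arrays in the fit or with the pair fitted alone. Gpx1, a glutathione peroxidase that shares hydrogen peroxide with catalase, rose by 0.22 ± 0.06 in the mean of both HAD/LAD pairs (adjusted p = 0.0203). It averaged 11.91 ± 0.15 in HAD1 rats, against 11.72 ± 0.19 in LAD1 rats, and 11.89 ± 0.21 in HAD2 rats, against 11.63 ± 0.17 in LAD2 rats (SD). Sod1, a superoxide dismutase, fell by 0.14 ± 0.04 on arrays labelled AA against ANA (adjusted p = 0.0185), and leaving out AA 15 or fitting the pair alone ended that call.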

How the data were processed

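Log2 signals of 31099 probe sets on 91 Affymetrix arrays were deposited by the authors. The submitters' processing notes name RMA, without a version. RMA corrects background, normalizes quantiles and summarises probes, and which arrays were run together is not given in the sources used here. Per the labels' protocols, 25 ng of total RNA was amplified in 2 cycles. The number of arrays limits the precision. The table had 0 columns without a sample, and no arrays were identical.

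The platform annotation gave 20826 probe sets 1 symbol, 436 several and 9780 none, and the 57 controls were left out. Groups came from the titles and characteristics. Probe sets whose highest line mean reached the 40th percentile (7.02) were tested, which were 15152 of 11087 genes. Limma (lmFit, eBayes) was fitted to the 35 HAD and LAD arrays as 4 line means with 31 residual degrees of freedom, and to the other 56 as 6 with 50. Dependence of the difference on the pair was tested over all 91 with a moderated F (4 numerator degrees of freedom). Tests were 2-sided, with Benjamini-Hochberg adjustment over all probe sets of a comparison and calls at 0.05. P-values rest on the spread between animals within lines, pooled over the 4 or 6 lines of a fit, or over all lines in the F test. This spread is moderated across probe sets by eBayes, and lines of a fit may differ in it. The fit was tested on simulated data. Members and lists were chosen with earlier results of these data known. All members and up to 4 called genes per list were named, with the 3 most alike genes computed for each enzyme. Lists hold 14, 18, 17 and 14 genes (other aldehyde dehydrogenases, other alcohol dehydrogenases and carbonyl reductases, makers and users, partners), of which 11, 16, 17 and 13 were measured.

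Alternatives were no floor or the 60th percentile (8.58), 1 probe set per gene, quantile normalization, median centring, an intensity trend with robust prior, array weights, a fold of 1.5, other sets of arrays in a fit, a replicate block and each array left out. Promoters are RefSeq's (GRCr8). Fits ran in limma 3.58.1 under R 4.3.3 (version 1.17.8 of data.table), and figures in matplotlib 3.10.9 under Python 3.11.15 (numpy 2.4.6, pandas 2.3.3).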

Additional observations from a re-analysis of the deposited data

Results flagged for a closer look

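Of 120 groups of 1 enzyme probe set in 1 line, 14 had an array farther from the rest than Dixon's criterion allows, where chance gives about 1 in 20. The array labelled P 10 was the lowest of its label for Aldh3a2 (10.67, the next at 11.09), Cat (11.61, the next at 12.22) and Acss2 (10.76, the next at 11.83). The array labelled sNP 4 was the lowest for Aldh1a1 (13.08, the next at 14.02) and Aldh7a1 (10.65, the next at 10.80) and the highest for Acss2 (12.14, the next at 11.85). On the Aldh5a1 probe set 1371062_at the arrays labelled AA 19 (8.0) and ANA 20 (8.03) were the lowest of their labels. The array labelled sP 2 was the highest for Aldh3a2 (11.42), and sP 3 was the lowest on the Aldh5a1 probe set 1391657_at (5.67). Cyp2e1 was high on 1 array each of LAD1 (LAD1 33, 6.88), and of those labelled P (P 4, 7.15), NP (NP 6, 7.79) and AA (AA 17, 6.66), and 2 of these exceed the signal floor of 7.02.

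Dcxr and Hacl1 differed between both HAD/LAD pairs by the interaction test of limma. The HAD1/LAD1 difference minus the HAD2/LAD2 difference was 0.30 for Dcxr and 0.41 for Hacl1.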

How the results depend on the processing

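No enzyme passed the threshold without the floor, with the higher floor, with 1 probe set per gene, with quantile normalization, with median centring, with the intensity trend or with other sets of arrays in a fit. Array weights called 1 enzyme in HAD1/LAD1 (Aldh2), 1 in the difference between both HAD/LAD pairs (Aldh2, -0.44), 1 in P/NP (Aldh5a1 1371062_at, -0.30), 2 in AA/ANA (Aldh2, -0.33, and Aldh9a1, -0.16) and 4 in the test over 5 pairs. Of all probe sets they called 1216 in P/NP, against 0, 1173 in AA/ANA, against 367, 1 in sP/sNP, against 0, and 3471 over 5 pairs, against 989. The weighted counts of all probe sets in the HAD/LAD comparisons are not given here. A fold of at least 1.5 left 133 calls in HAD1/LAD1, 172 in HAD2/LAD2, 75 in their mean, 302 in their difference and 74 in AA/ANA, and was not run for the test over 5 pairs. Fitting AA/ANA alone gave 197 calls, and leaving out the 3 arrays that stand apart gave 507. The cause of these changes was not tested. Leaving out 1 array at a time gave 280 (ANA 18) to 585 (ANA 20) calls in AA/ANA, and 0 to 1 enzymes in HAD2/LAD2 (HAD2 5), 0 to 2 in the difference between pairs (HAD2 5) and 0 to 1 over 5 pairs (HAD2 2).

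The fits with the animal number as a replicate block called 0 probe sets and 0 enzymes in P/NP and in sP/sNP, as without it. Shared animal numbers did not pair arrays. Same-numbered deviations correlated at -0.71 to 0.70 over 9 P/NP pairs, with 6 over 0.1, and at -0.37 to 0.29 over 8 sP/sNP pairs, with 1 over 0.1. Of these arrays 1 P/NP pair and 0 sP/sNP pairs correlated best with their own number. No paired analysis was possible for the other pairs because their arrays share fewer than 2 numbers.

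None of the differences that changed sign was called, and all but Aldh1a1 in P/NP (-0.30) were below 0.1 in size. Aldh3a2 in HAD2/LAD2 was -0.012 with quantile normalization, -0.014 with median centring and -0.0026 with array weights. In the mean of both HAD/LAD pairs Aldh5a1 1379900_at was -0.0024 with quantile normalization, and Aldh9a1 was -0.014 with it and -0.0043 with median centring. Array weights gave 0.094 for Aldh2, 0.47 for Aldh1a1, 0.11 for Aldh7a1 and 0.072 for Adh5 in P/NP, -0.016 for Cat and 0.0018 for Aldh5a1 1379900_at in AA/ANA, and -0.0039 for Aldh7a1 in sP/sNP. Without the 3 arrays that stand apart Cat was -0.064 and Aldh5a1 1379900_at 0.0056 in AA/ANA.

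With 1 array left out at a time, these differences crossed 0. In HAD1/LAD1 Acss2 ranged from -0.082 to 0.0025. In HAD2/LAD2 Aldh3a2 ranged from -0.023 to 0.018, Aldh5a1 1371062_at from -0.050 to 0.0093 and Cat from -0.063 to 0.0093. In their mean Aldh9a1 ranged from -0.0082 to 0.024. In their difference Adh5 ranged from -0.043 to 0.014, Cat from -0.067 to 0.012 and Acss2 from -0.0014 to 0.087. In P/NP Aldh2 ranged from -0.14 to 0.036, Aldh1a1 from -0.50 to 0.0044, Aldh7a1 from -0.067 to 0.017 and Adh5 from -0.038 to 0.019. In AA/ANA Aldh5a1 1371062_at ranged from -0.047 to 0.15, Aldh5a1 1379900_at from -0.034 to 0.012 and Cat from -0.029 to 0.056. In sP/sNP Aldh2 ranged from -0.017 to 0.049, Aldh5a1 1371062_at from -0.038 to 0.0068, Aldh7a1 from -0.016 to 0.018, Aldh9a1 from -0.015 to 0.0072, Adh5 from -0.019 to 0.0079 and Acss2 from -0.016 to 0.054. Signals near the floor limit what can be said of Cyp2e1.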
